A study of Mus musculus with 12 samples.

Results

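The 10 genes described here encode the 3 transforming growth factor beta (TGF-beta) ligands of the mouse (Tgfb1, Tgfb2 and Tgfb3), the 3 receptors that bind them (Tgfbr1, Tgfbr2 and Tgfbr3) and the 4 latent TGF-beta binding proteins (Ltbp1, Ltbp2, Ltbp3 and Ltbp4). They were chosen by symbol, and every probe set annotated to 1 gene with one of these symbols was taken, which gave 24 probe sets of the 45101 on the array and 10 genes of the 18193 with such a probe set. RNA from 12 mouse hearts was labelled and hybridised to Affymetrix mouse arrays, 3 in each of 4 groups. The groups were apelin-knockout mice with aortic banding (KO banded), apelin-knockout mice with a sham operation (KO sham), wild-type mice with aortic banding (WT banded) and wild-type mice with a sham operation (WT sham). Aortic banding narrows the aorta, so that the heart pumps against a raised pressure, and the comparison asks how hearts with and without apelin, a peptide that acts on heart and vessels, differ under that load. The sources used here do not give strain, age, the time between surgery and sampling, the chamber taken or the construction of the knockout allele.

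TGF-beta ligands are made as precursors that are cleaved but stay bound to their own propeptide, and most of this latent complex is joined to a latent TGF-beta binding protein that anchors it in the extracellular matrix. Integrins, thrombospondin and proteases release the ligand, which then binds the type II receptor TGFBR2. This receptor phosphorylates the type I receptor TGFBR1, which passes the signal to Smad proteins that then move into the nucleus. In the heart the pathway is known for its part in fibroblast activation, matrix deposition and scar formation under pressure load.

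Each array had a trimmed mean of 150 intensity units, and the correlation of log2 values between arrays was 0.961 to 0.981. All 9 cardiomyocyte markers were measured, and their summed intensity was 66462 to 67755 in KO banded, 81207 to 89571 in KO sham, 76492 to 94866 in WT banded and 68088 to 129710 in WT sham hearts. Apln, which encodes apelin, had 271, 123 and 160 units in the KO banded arrays and 63.7, 111 and 85.4 in the KO sham arrays. In WT banded arrays it had 205, 223 and 255 units, and in WT sham arrays 333, 323 and 212, so that the array labelled KO banded replicate 1 lay within the wild-type range. The sources used here do not say whether the probe set lies in the deleted sequence. The same array stood apart by a summed lung marker intensity of 1675, against 173 to 248 on the other 11 arrays. Of the 6 lung genes, Scgb1a1 (1094 units) and Scgb3a2 (410) made up most of this sum, while the surfactant genes Sftpa1, Sftpb, Sftpc and Sftpd had 30.4, 54.3, 49.2 and 37.3 units there, within their range on the other arrays. One further array, WT banded replicate 3, stood apart by Xist, at 1255 units against 43.3 to 89.2 on the others. The sample labels do not give the sex of the mice. The members' differences for banding in KO hearts are therefore given with and without KO banded replicate 1.

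In KO hearts the gene for the ligand TGF-beta 2 was higher after banding, and it was the 1 member of 10 that passed the test across all genes. Its intensity averaged 339 ± 127 in KO banded and 81.6 ± 11.3 in KO sham hearts (SD, n = 3 each). Ltbp2 had a larger fitted difference, which rested on 2 of the 3 KO banded arrays and did not pass. The other members differed by less, with 6 of them positive and 2 negative, and no member passed for banding in WT hearts. Among all 10916 genes tested, 3.77% passed for banding in KO hearts (2.04% higher and 1.73% lower) and 0% for banding in WT hearts. The test was limma on log2 of intensity plus 16, and passing means a two-sided p under 0.05 after Benjamini-Hochberg adjustment over all tested genes.

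**Figure D1:**
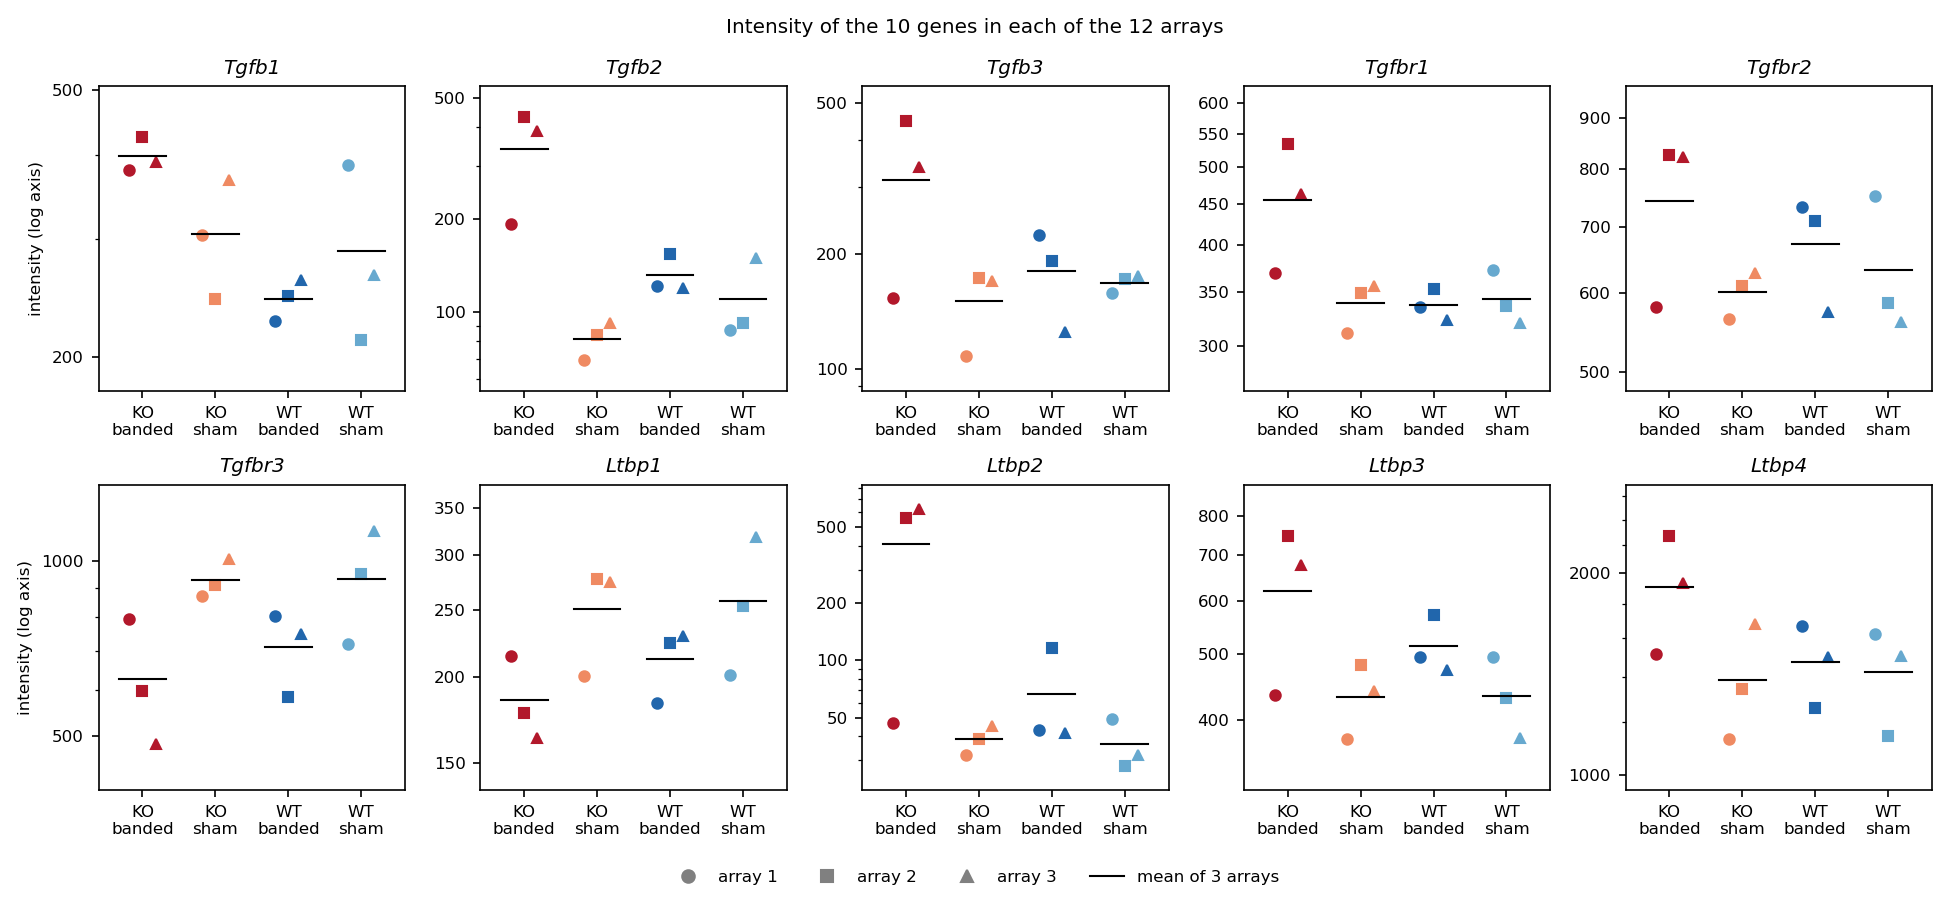
Intensity (log axis) of each of the 10 genes on every array by group, from the probe set with the highest mean, with a symbol for each array and lines for group means. Tgfb2 lies higher on all 3 KO banded arrays than on any KO sham array, while Ltbp2 is high on KO banded replicates 2 and 3 and low on replicate 1.

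The promoter windows of Tgfb2, Ltbp2 and Tgfb1 are shown because these were the ligands and the binding protein whose KO banded arrays all lay above the KO sham arrays. They are the bases before an annotated start, 5′ to 3′ on the gene's strand, from the RefSeq promoter table for GRCm38.p6, in which 8 of the 10 genes had an entry. Capitals mark matches, on either strand, to any of 7 motifs. They were the TATA box as TATAAA, the E-box of basic helix-loop-helix proteins as CACGTG, the AP-1 site as TGANTCA and the cyclic AMP response element as TGACGTCA. The other 3 were the Smad binding element as CAGACA, the GC box of Sp proteins as GGGCGG and the TEAD site as CATTCC. The Tgfb2 window lies at chr1:186705990-186706239 on the minus strand, before a start that is 3708 bases inside the outer end of the gene. The Ltbp2 window, at chr12:84876559-84876741 on the minus strand, stops 67 bases before the start. The Tgfb1 window lies at chr7:25686752-25687001 on the plus strand.
Tgfb2: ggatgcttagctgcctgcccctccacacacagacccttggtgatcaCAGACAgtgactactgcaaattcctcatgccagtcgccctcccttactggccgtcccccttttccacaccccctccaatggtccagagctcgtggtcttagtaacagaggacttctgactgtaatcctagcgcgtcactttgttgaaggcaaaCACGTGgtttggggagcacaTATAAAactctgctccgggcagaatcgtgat
Ltbp2: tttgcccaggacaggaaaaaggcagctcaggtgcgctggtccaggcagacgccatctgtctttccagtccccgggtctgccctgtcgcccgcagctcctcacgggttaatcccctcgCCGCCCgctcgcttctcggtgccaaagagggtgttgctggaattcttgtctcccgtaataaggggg
Tgfb1: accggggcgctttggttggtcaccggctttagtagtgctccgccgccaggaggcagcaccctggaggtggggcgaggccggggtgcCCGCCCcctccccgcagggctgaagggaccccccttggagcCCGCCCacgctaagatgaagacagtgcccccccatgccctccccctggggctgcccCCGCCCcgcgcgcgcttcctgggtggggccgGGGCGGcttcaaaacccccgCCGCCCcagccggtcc

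The Tgfb2 window held 1 match each to TATAAA, starting 31 bases before the start, to CACGTG, 51 bases before it, and to CAGACA, 204 bases before it. These letters occur in 12.4%, 6.02% and 17.1% of the 32851 windows of the same length in the table. The Ltbp2 window held 1 match, to GGGCGG, which 21.5% of windows of its length hold. By contrast, the Tgfb1 window held 5 matches to GGGCGG, found in 32.7% of windows, and no match to the other 6 motifs. The content of G and C was 53.6% for Tgfb2, 61.7% for Ltbp2 and 75.2% for Tgfb1. The matches overlap no other match, and they describe letters, not binding.

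Tgfb2 encodes the ligand known for its part in heart valve and outflow tract development. Its intensity was 194, 433 and 389 on the KO banded arrays and 69.3, 84.0 and 91.5 on the KO sham arrays. On the WT banded arrays it was 122, 154 and 120, and on the WT sham arrays 87.3, 91.4 and 150. All 3 KO banded arrays were above the other 9, with replicate 1 the lowest of them, and the WT banded and WT sham arrays overlapped. The difference for banding in KO hearts was 1.79 on the log2 scale (SE 0.26, limma adjusted p = 0.0115), a 3.47-fold ratio of intensity plus 16. For banding in WT hearts it was 0.26 (SE 0.26, limma adjusted p = 0.983), and 0.14 to 0.48 with 1 array left out in turn.

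The 4 Tgfb2 probe sets gave the same direction in KO hearts. Their differences for banding were 1.79, 1.66, 1.33 and 1.25 on the log2 scale, and each passed when all 20967 probe sets above the filter were fitted one by one (limma adjusted p of 0.0131 to 0.0232 for the last 3), against 2.39% of those probe sets. The second of them, for instance, had 118, 278 and 249 units in KO banded and 50.4, 49.4 and 60.6 in KO sham hearts. In WT banded hearts it had 103, 102 and 81.4 units and in WT sham hearts 77.6, 61.7 and 49.6. On the 3 further probe sets the WT banded arrays all lay above the WT sham arrays, as on 4.29% of probe sets and unlike on the first, with differences of 0.50, 0.23 and 0.27 that did not pass (limma adjusted p of 0.892 to 0.968, against 0% of probe sets). Probe sets of 1 gene share the same RNA and are no independent replicates.

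**Figure D2:**
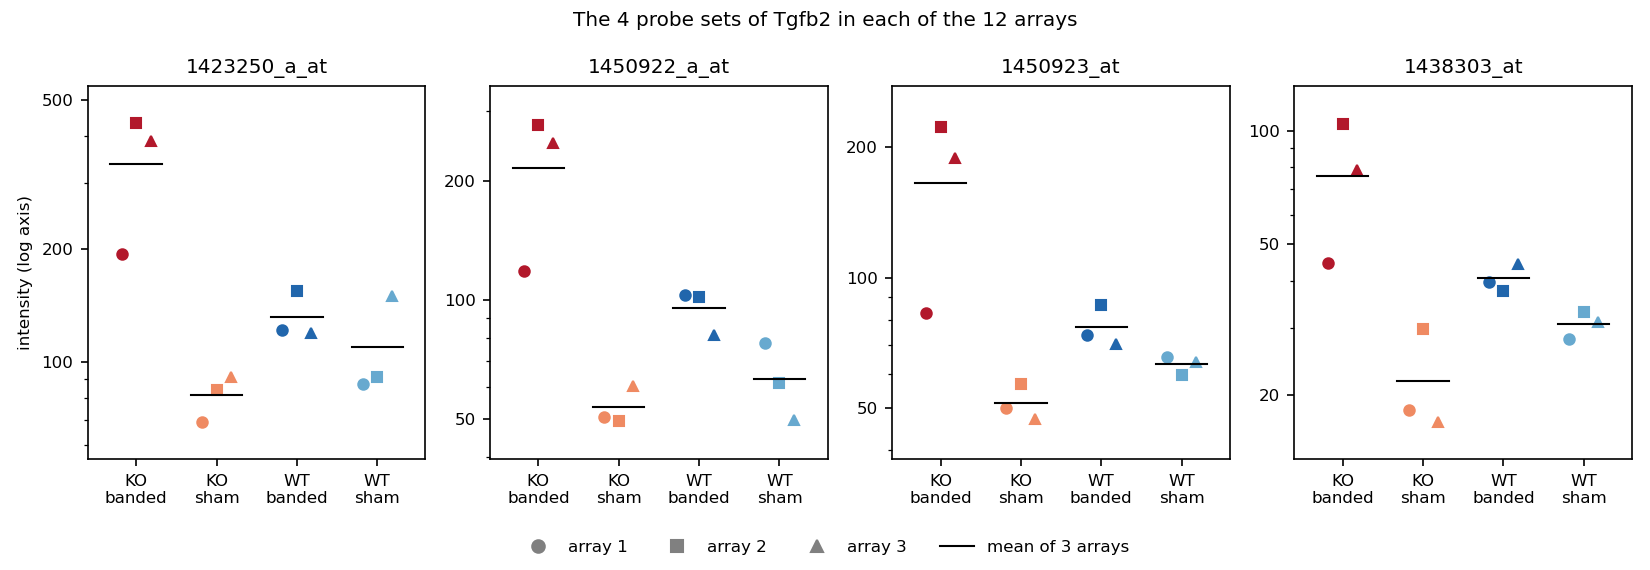
Intensity (log axis) of the 4 Tgfb2 probe sets on each array by group, with a symbol for each array and lines for group means. In each of the 4 probe sets KO banded replicate 1 is the lowest of the KO banded arrays.

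The Tgfb2 call depended on single arrays. It remained, with a larger difference, without KO banded replicate 1 (2.13, SE 0.20, limma adjusted p = 8.3e-05), and it was lost without KO banded replicate 2 (limma adjusted p = 0.0533), KO banded replicate 3 (0.0731) or KO sham replicate 3 (0.0523). In none of the settings tried did the difference turn sign, and it ranged between 1.41 and 2.13.

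Tgfb1 encodes the ligand made by platelets and immune cells as well as by cells of the heart. Its intensity was 381, 426 and 391 on the KO banded arrays, against 303, 244 and 368 on the KO sham arrays. WT banded arrays had 226, 246 and 260 units and WT sham arrays 387, 212 and 265. The KO banded arrays were close to each other and above the KO sham and WT banded arrays, but 1 WT sham array reached the same level. The difference for banding was 0.39 (SE 0.19, limma adjusted p = 0.255) in KO and -0.19 (SE 0.19, adjusted p = 0.983) in WT hearts, and 0.42 in KO hearts without KO banded replicate 1 (SE 0.21, limma adjusted p = 0.227). A second Tgfb1 probe set, at 55.0 to 87.8 units over the 12 arrays, had a difference of 0.05 in KO hearts.

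Tgfb3 encodes the ligand known for its part in palate fusion. Its intensity was 154, 449 and 340 on the KO banded arrays and 108, 173 and 170 on the KO sham arrays. It was 225, 192 and 125 on the WT banded arrays and 158, 172 and 175 on the WT sham arrays. KO banded replicates 2 and 3 were above every other array, and replicate 1 lay inside the KO sham range. The difference for banding in KO hearts was 0.90 (SE 0.31, limma adjusted p = 0.125), and without KO banded replicate 1 it was 1.32 (SE 0.23, limma adjusted p = 0.0036).

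Among the receptors, none passed with all arrays. Tgfbr1, the type I receptor kinase, had 370, 534 and 463 units in KO banded and 312, 349 and 357 in KO sham hearts. In WT banded hearts it had 335, 353 and 324 units, and in WT sham hearts 373, 336 and 320. The KO banded arrays were all above the KO sham arrays, while replicate 1 lay below the highest WT sham array. The banding difference was 0.40 (SE 0.12, limma adjusted p = 0.0917) in KO and -0.02 (SE 0.12, adjusted p = 0.995) in WT hearts. In KO hearts it was 0.53 without KO banded replicate 1 (SE 0.11, limma adjusted p = 0.0084). The 2 other Tgfbr1 probe sets, at 31.9 to 68.9 units, had differences of 0.32 and 0.07 in KO hearts.

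Tgfbr2, the type II receptor that binds the ligand first, had 582, 827 and 822 units in KO banded and 565, 610 and 629 in KO sham hearts. It had 732, 710 and 575 units in WT banded and 752, 587 and 561 in WT sham hearts. KO banded replicates 2 and 3 were the highest of the 12 arrays, and the groups overlapped. The difference was 0.28 (SE 0.15, limma adjusted p = 0.309) for banding in KO hearts and 0.09 (SE 0.15, adjusted p = 0.990) in WT hearts. In KO hearts it was 0.45 without KO banded replicate 1 (SE 0.14, limma adjusted p = 0.0530). A second probe set had 0.64 in KO hearts (SE 0.23, limma adjusted p = 0.163), and another, at 1.18 to 22.8 units, was below the filter on low values.

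Tgfbr3 encodes betaglycan, the co-receptor that presents TGF-beta 2 to the signalling receptors. It had 796, 598 and 484 units on the KO banded arrays and 871, 908 and 1007 on the KO sham arrays. On the WT banded arrays it had 805, 583 and 748 units, and on the WT sham arrays 720, 951 and 1126. The KO banded arrays were all below the KO sham arrays, and the WT groups overlapped. The difference for banding was -0.58 (SE 0.19, limma adjusted p = 0.104) in KO and -0.37 (SE 0.19, adjusted p = 0.921) in WT hearts.

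The second Tgfbr3 probe set had 84.3, 103 and 110 units in KO banded against 124, 204 and 188 in KO sham hearts, which again did not overlap. Its difference was -0.69 (SE 0.18, limma adjusted p = 0.0572) in KO and -0.07 (SE 0.18, adjusted p = 0.986) in WT hearts. For the gene, read from the first probe set, the difference without KO banded replicate 1 was -0.77 (SE 0.18, limma adjusted p = 0.0175). That array was the highest KO banded array on the first probe set and the lowest on the second, so the larger difference without it describes the first only. In whole heart RNA, fewer cells of a type and less RNA per cell cannot be told apart.

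Of the latent binding proteins, Ltbp2 is the member known as a microfibril protein that does not bind latent TGF-beta covalently, unlike the other 3. Its intensity was 46.7, 562 and 621 on the KO banded arrays and 31.7, 38.6 and 45.1 on the KO sham arrays. WT banded arrays had 42.9, 116 and 41.6 units, and WT sham arrays 49.2, 28.0 and 31.7. Only KO banded replicates 2 and 3 were far above the rest, WT banded replicate 2 came next, and KO banded replicate 1 was at the level of the sham hearts. The difference for banding in KO hearts was 2.39 (SE 0.68, limma adjusted p = 0.0691), and 0.57 (SE 0.68, adjusted p = 0.983) in WT hearts, where it was 0.18 to 0.77 with 1 array left out in turn.

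Ltbp2 entered the test only through the arrays on which it was high: its mean passed the filter on low values, whereas the mean of its other 9 arrays would not have. With no filter its adjusted p for banding in KO hearts was 0.115 in limma. The difference without KO banded replicate 1 was 3.49 (SE 0.31), with a limma adjusted p of 7.17e-05 under the filter and of 0.000176 when all 18193 genes were fitted with no filter, a setting chosen after seeing the data. Calls of Ltbp2 are therefore kept apart from the counts of the other 9 genes below.

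Ltbp3, whose loss in mice alters bone growth, had 435, 747 and 678 units in KO banded and 375, 482 and 442 in KO sham hearts. It had 495, 572 and 475 units in WT banded and 495, 431 and 376 in WT sham hearts. KO banded replicates 2 and 3 were above all other arrays and replicate 1 was inside the KO sham range. The difference for banding was 0.47 (SE 0.18, limma adjusted p = 0.151) in KO and 0.24 (SE 0.18, adjusted p = 0.975) in WT hearts. In KO hearts it was 0.70 (SE 0.14, limma adjusted p = 0.0068) without KO banded replicate 1. A second probe set had 199, 401 and 319 units in KO banded and 181, 209 and 241 in KO sham hearts. Its difference was 0.46 in KO and 0.32 in WT hearts.

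Ltbp4, an elastic fibre component, had 1517, 2270 and 1931 units in KO banded, 1131, 1343 and 1678 in KO sham, 1666, 1258 and 1501 in WT banded and 1621, 1144 and 1505 in WT sham hearts. The groups overlapped. Its difference was 0.46 (SE 0.19, limma adjusted p = 0.181) for banding in KO hearts and 0.06 (SE 0.19, adjusted p = 0.995) in WT hearts. Leaving out KO banded replicate 1 gave 0.61 in KO hearts (SE 0.19, limma adjusted p = 0.0520).

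Ltbp1, the binding protein that anchors latent TGF-beta in a fibronectin matrix, had 215, 177 and 163 units in KO banded, 201, 277 and 274 in KO sham, 184, 224 and 229 in WT banded and 201, 253 and 318 in WT sham hearts. It was lowest on KO banded replicates 2 and 3, with a difference of -0.40 (SE 0.17, limma adjusted p = 0.203) in KO and -0.25 (SE 0.17, adjusted p = 0.958) in WT hearts. In KO hearts it was -0.50 without KO banded replicate 1 (SE 0.19, limma adjusted p = 0.0997).

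The 5 probe sets of these genes below the filter (1 of Tgfbr2, 2 of Ltbp1 and 2 of Ltbp3) had values of 0.358 to 30.0 units.

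**Figure D3:**
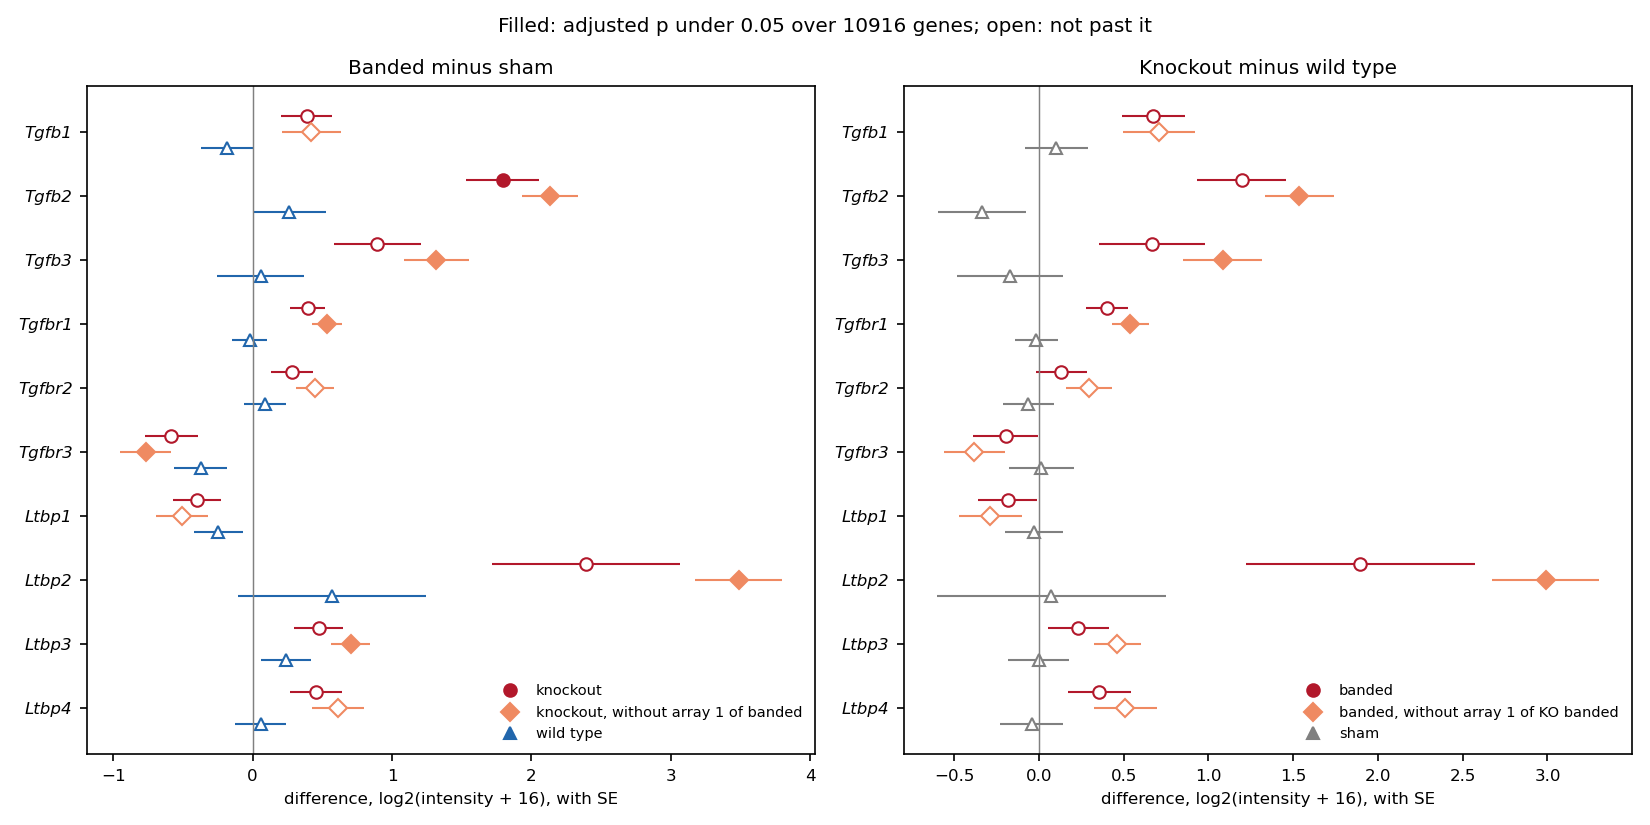
Difference in log2(intensity + 16) for the 10 genes with bars of 1 SE from the limma fit, for banded minus sham in KO hearts (circles), in KO hearts without KO banded replicate 1 (diamonds) and in WT hearts (triangles) on the left, and for KO minus WT in banded hearts (circles), in banded hearts without that array (diamonds) and in sham hearts (triangles) on the right. Filled symbols passed: Tgfb2 at 1.79 with all arrays on the left, and none with all arrays on the right.

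Counted over the 10 genes, the KO banded arrays did not overlap the KO sham arrays and were higher for 4, against 12.2% of all tested genes. These were Tgfb1, Tgfb2, Tgfbr1 and Ltbp2, the last of which entered the test only through its KO banded arrays. The KO banded arrays were lower without overlap for 1 (Tgfbr3), against 14.4%. In WT hearts the banded and sham arrays overlapped for all 10, where 3.78% of all genes were higher and 6.15% lower without overlap. The median difference of the 10 genes, Ltbp2 included, was 0.43 for banding in KO hearts, beside -0.02 for all tested genes. In WT hearts it was 0.06, also beside -0.02. Unadjusted p was under 0.05 for 8 members in KO hearts, Ltbp2 among them (21.2% of all genes), and for 0 in WT hearts (4.92%).

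Arrays of KO banded hearts differed among themselves for these genes. KO banded replicates 2 and 3 lay outside the KO sham range for all 10 members, whereas replicate 1 lay inside it for 5 of 10. Over all tested genes, 31.5%, 32.6% and 42.6% lay inside the range for replicates 2, 3 and 1. WT banded replicates 1, 2 and 3 were inside the WT sham range for 7, 5 and 9 of the 10, beside 56.4%, 54.6% and 56% of all tested genes. Without KO banded replicate 1, 4 of the 9 members other than Ltbp2 passed as higher (Tgfb2, Tgfb3, Ltbp3 and Tgfbr1) and 1 as lower (Tgfbr3) for banding in KO hearts, and the median difference of the 10 genes was 0.57. The background moved with them, to 13.1% of all genes (6.21% higher and 6.93% lower). With no filter and without that array, the same 5 of these 9 passed, against 6.34% of 18193 genes.

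Averaged over both genotypes, banding gave 1 call among the 10 members, Tgfb2, against 1.58% of all genes (0.934% higher). Its difference was 1.03 (SE 0.18, limma adjusted p = 0.0268), beside 1.79 in KO and 0.26 in WT hearts. This call was lost without any 1 of 8 arrays: KO banded 2 or 3, KO sham 1, 2 or 3, WT banded 1 or 2, or WT sham 2. Next came Tgfbr3 at -0.48 (SE 0.13, limma adjusted p = 0.0976) and Ltbp2 at 1.48 (SE 0.48, limma adjusted p = 0.131). Without KO banded replicate 1, 4 of the 9 members other than Ltbp2 passed against 9.08% of genes: Tgfb2, Tgfb3, Ltbp3 and, lower, Tgfbr3. Ltbp2 had 2.03 in that fit, with a limma adjusted p of 0.000707 under no filter.

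Between genotypes under banding, 0 of the 10 members and 0% of all genes passed in limma. Unadjusted p was under 0.05 for 4 members, Ltbp2 among them, and for 14.7% of genes. Tgfb2 was 1.19 higher in KO banded than in WT banded hearts on the log2 scale (SE 0.26, adjusted p = 0.125), Tgfb1 0.67 (SE 0.19, adjusted p = 0.163), Tgfbr1 0.40 (SE 0.12, adjusted p = 0.196) and Ltbp2 1.90 (SE 0.68, adjusted p = 0.230). The KO banded arrays of Tgfb1, Tgfb2 and Tgfbr1 were all above the WT banded arrays, as for 10.2% of genes, and those of 0 members were all below, as for 8.94%. Without KO banded replicate 1, 3 of the 9 members other than Ltbp2 passed as higher in KO hearts against 6.17% of genes called: Tgfb2 at 1.54, Tgfb3 at 1.08 and Tgfbr1 at 0.54. Ltbp2 had 2.99 in that fit, with a limma adjusted p of 0.00172 under no filter.

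In sham hearts 0 members and 0% of genes passed between genotypes, and unadjusted p was under 0.05 for 0 members and 5.17% of genes. Differences were -0.33 to 0.10, with Tgfb2 at -0.33 (SE 0.26, limma adjusted p = 0.963), and the KO sham and WT sham arrays overlapped for all 10 members, where 5.51% of genes were higher and 5.34% lower without overlap. Averaged over surgery, 0 members and 0% of genes passed, with unadjusted p under 0.05 for 3 members (10.6% of genes), and without KO banded replicate 1 none of the 9 members other than Ltbp2 passed, against 1.32% of genes. Ltbp2, at 1.53 (SE 0.21), had a limma adjusted p of 0.0103 in that fit and of 0.0211 with no filter.

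The interaction, which is the banding difference in KO hearts minus that in WT hearts, tests whether the genotypes differ in their response. It passed for 0 members and 0% of genes, with unadjusted p under 0.05 for 3 members (9.08% of genes). Tgfb2 had 1.53 (SE 0.37, limma adjusted p = 0.401) and Ltbp2 1.82 (SE 0.95, limma adjusted p = 0.588). When KO banded replicate 1 was left out Tgfb2 passed at 1.87 (SE 0.27, limma adjusted p = 0.00798), as 1 of the 9 members other than Ltbp2 and against 1.9% of genes. Ltbp2, which entered the test only through KO banded arrays, had 2.92 (SE 0.42), with a limma adjusted p of 0.00798 under the filter and of 0.0154 without it. With all arrays, a difference between the genotypes in the response of these genes was therefore not shown.

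Another 5 lists of pathway genes, 81 genes with 77 measured and 67 tested, were read in the same fit. Of 12 tested genes of latent TGF-beta activation and matrix storage, 4 rose and 0 fell for banding in KO hearts, beside the 3.77% of all genes called. They were Thbs1, a thrombospondin that activates latent TGF-beta (2.11, limma adjusted p = 0.0463), the membrane protease gene Mmp14 (1.05), and the integrin genes Itgb5 (0.70) and Itgav (0.55). Thbs1 had 75.1, 333 and 336 units in KO banded and 36.0, 42.6 and 30.1 in KO sham hearts, and 97.1, 269 and 92.4 in WT banded and 64.9, 107 and 215 in WT sham hearts.

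Among 6 tested genes of TGF-beta binding proteoglycans and antagonists, 2 rose and 1 fell for banding in KO hearts, beside the 3.77% of all genes called. Aspn (1.46) and Bgn (1.14), proteoglycans that bind TGF-beta, rose, and Htra1, a serine protease, fell by 0.62 on the log2 scale (limma adjusted p = 0.0223). Bgn had 2436, 5081 and 5034 units in KO banded and 1677, 1843 and 1859 in KO sham hearts, without overlap.

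Of 12 tested co-receptors and receptor regulators, 0 passed for banding in KO hearts, beside 3.77% of all genes. The smallest p values were those of Ppp1r15a (0.96, limma adjusted p = 0.0666) and Zfyve16 (0.44, adjusted p = 0.112). Of 19 tested Smads and Smad co-factors, 1 rose, which is close to the 3.77% of all genes called and is no result about the list. It was Skil, a repressor of Smad signalling (0.69, limma adjusted p = 0.0485), which is itself known as a TGF-beta target. Next to it, Smad1 had 0.42 (adjusted p = 0.0568). The medians of these lists in KO hearts, 0.04 and 0.01, were near the -0.02 of all genes.

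Of 18 tested TGF-beta target genes, 6 rose and 0 fell for banding in KO hearts, beside 2.04% of all genes called higher and 1.73% lower. The list median was 1.21, beside -0.02 for all tested genes, and 1.68 without KO banded replicate 1, beside -0.03. They were Ccn2, a matricellular growth factor (2.50, limma adjusted p = 0.0216), Postn, which encodes periostin (2.63), the collagen genes Col3a1 (1.47), Col5a2 (1.61) and Col1a1 (1.18), and Eln, which encodes elastin (1.62). Postn had 639, 4719 and 3978 units in KO banded and 356, 354 and 365 in KO sham hearts, and 634, 627 and 609 in WT banded and 590, 303 and 411 in WT sham hearts. As for Ltbp2, replicates 2 and 3 of the KO banded arrays were far above replicate 1. Of the 18 differences in the list 17 were positive, among them small ones for Tgfbi (0.04) and Bhlhe40 (0.06). The negative one was that of Acta2 (-0.59, SE 0.49, limma adjusted p = 0.527). These target genes also respond to signals other than TGF-beta, and none of the 5 lists was measured as protein or pathway activity.

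**Figure D4:**
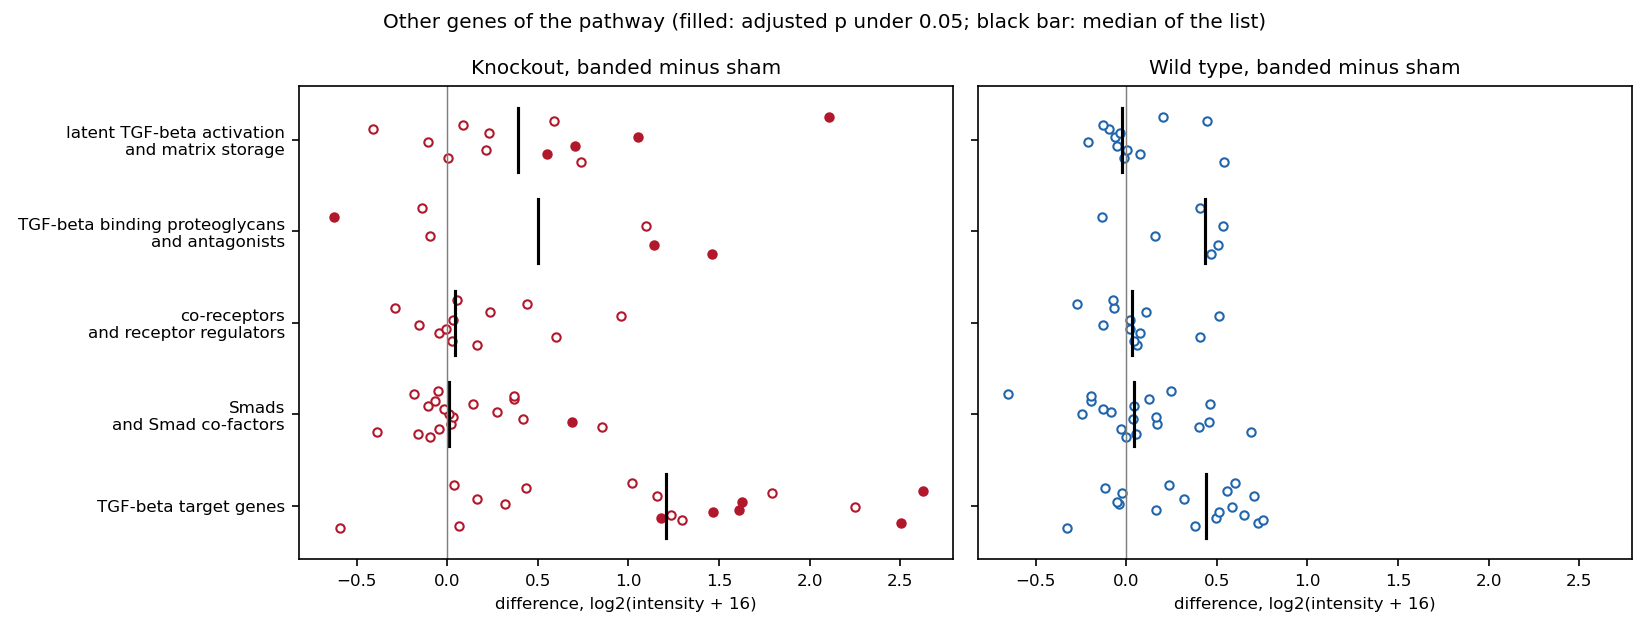
Log2 difference for banding in KO and in WT hearts for the tested genes of each of the 5 pathway lists, with filled points for genes that passed and bars for list medians. The banding differences of the target genes have medians of 1.21 in KO and 0.44 in WT hearts, and the medians of the co-receptors and Smads lie near 0.

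For banding in WT hearts 0 genes of the 5 lists and 0% of all genes passed. The list medians were -0.02 for activation and storage, 0.44 for proteoglycans and antagonists, 0.03 for co-receptors, 0.04 for Smads and 0.44 for targets. Averaged over genotypes, 2 proteoglycan genes (Bgn and Aspn), 1 Smad co-factor (Skil) and 3 target genes (Col3a1, Col1a1 and Ccn2) passed, beside 1.58% of all genes. Leaving out KO banded replicate 1, when 13.1% of all genes were called for banding in KO hearts, 11 target genes, 6 genes of activation and storage, 4 proteoglycans and antagonists (1 of them lower), 4 Smads or co-factors and 2 co-receptors or regulators were called. With all arrays, 0 genes of the 5 lists passed between genotypes in sham or banded hearts or for the interaction. For KO minus WT, the target list median was -0.39 in sham hearts, with 3 of 18 differences positive. It was 0.24 in banded hearts, with 13 of 18 positive. The larger median for banding in KO hearts thus went with lower values of most target genes in KO sham than in WT sham hearts.

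Marker sums of other cell types were read beside these results. The fibroblast sum over 8 genes was 12981 to 15235 in KO banded, 13272 to 15601 in KO sham, 15683 to 19675 in WT banded and 13953 to 17399 in WT sham hearts, and 1 of its 8 genes, Col1a1, which is also in the target list, passed for banding in KO hearts. The macrophage sum over 11 genes was 3719, 5756 and 5818 on KO banded replicates 1, 2 and 3 and 3971 to 4796 in KO sham hearts, and 4434 to 6311 in WT banded and 4090 to 5938 in WT sham hearts, and 0 of its genes passed. The macrophage sum was highest on WT banded replicate 2 (6311) and next on WT sham replicate 1 (5938). The atrial cardiomyocyte sum varied widely within groups, at 12666 to 16582 in KO banded, 6022 to 27144 in KO sham, 6239 to 35659 in WT banded and 4169 to 30639 in WT sham hearts. Of the 9 cardiomyocyte markers, 0 had a positive difference for banding in KO hearts, with a median of -0.31. Their sum was lower on each KO banded array (66462 to 67755) than on every other array (68088 or more). One of them, the calcium channel gene Ryr2, passed as lower (-0.53, limma adjusted p = 0.0320). No gene of the endothelial, smooth muscle, platelet, neutrophil, lymphocyte, mesothelial, atrial, adipocyte or lung lists passed. The adipocyte sum was 1372 on KO banded replicate 1 and 1405 on WT banded replicate 1, and 49.8 to 452 on the others. The ratio, in log2, of the Actb control probe sets at the 3′ and 5′ ends, a sign of RNA quality, was -0.218 to -0.172 in KO banded, -0.01 to 0.301 in KO sham, 0.079 to 0.276 in WT banded and -0.091 to 0.183 in WT sham hearts. On this Actb ratio all KO banded arrays lay below every other array. The same ratio for Gapdh, at -0.345 to -0.324 in KO banded and -0.371 to -0.328 in KO sham hearts, overlapped between these groups. It was -0.388 to -0.340 in WT banded and -0.376 to -0.357 in WT sham hearts. The part of these differences in the values of the 10 genes was not tested.

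Correlations between members across the 12 arrays are a description, since the arrays share their groups. Pearson's r of log2 values was 0.38 for Tgfb1 and Tgfb3, 0.52 for Tgfb1 and Tgfb2 and 0.63 for Tgfb2 and Tgfbr2, and without KO banded replicates 2 and 3 (n = 10) it was -0.35, 0.03 and -0.01. It was 0.90 for Tgfb2 and Ltbp2, 0.92 for Ltbp2 and Ltbp3 and -0.84 for Tgfbr3 and Ltbp2. Without the same arrays these were 0.43, 0.79 and -0.80, so that the relation of Tgfb2 and Ltbp2 rested largely on those arrays. The other relations changed less, but in the remaining arrays Ltbp2 was 28.0 to 49.2 units except on WT banded replicate 2 (116). That array also had the lowest Tgfbr3 (583) and the highest Ltbp3 (572) of those arrays. Over all tested genes, the values most like Tgfb2 were those of Otulin (r = 0.96), Adcy7, Col8a1, Capg and Fam124a. The values most like Ltbp2 were those of Cilp (0.97), Pfkp, Serpinf1, Vgll2 and Tspo, and those most like Tgfb3 were of B3gnt9 (0.96), Fbln5, Sfrp2, Loxl3 and Serpinf1. Without KO banded replicates 2 and 3 these 15 correlations were 0.602 to 0.889.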

How the data were processed

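RNA from 12 mouse hearts was measured on arrays. The values deposited by the authors are linear intensities per probe set, and the sources used here name neither the software that made them nor a genome build. Every array had the same 2% trimmed mean, so no further scaling was applied. Array data have no read depth, and the 3 arrays a group limit the precision; the labels call them biological replicates.

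Control probe sets (64), those with several genes (932) and those not listed in the annotation (9160) were left out. Each gene was its single-gene probe set of highest mean, and the upper 60% of 18193 genes by mean, 10916, were tested. Log2(value + 16) of all 12 arrays was fitted by 4 group means with limma 3.58.1 in R 4.3.3 (eBayes with a variance trend, 8 residual degrees of freedom, 7 contrasts, two-sided). On simulated data of 10916 genes, banding in knockout recovered 88% of genes set to a 2-fold and 99.3% of those set to a 4-fold change, with 4.4% of calls false. The simulated noise was independent, with the same spread in every group and no array that stood apart. It checks the fit, and its rates do not describe the power or the false calls in these hearts, where KO banded replicate 1 stood apart.

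The 10 members, the pathway and marker lists, and the tests were chosen with earlier results of these data known. Named genes are the members, Apln, listed genes that passed (up to 6 a list, or the 2 with the smallest p where fewer than 2 passed), genes of a marker list where it is described, and the 5 genes most correlated with Tgfb2, Tgfb3 and Ltbp2; other genes of the lists were named after their values were seen. Promoters came from the RefSeq table for GRCm38.p6. Alternatives were the filter, pseudocount, scaling, trend, array weights, mean of probe sets, a fit of the compared groups alone, single probe sets, the replicate number as a block, and fits with arrays left out.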

Additional observations from a re-analysis of the deposited data

How the results depend on the processing

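With 3 arrays a group, the calls moved with single arrays. Member counts here are over all 10 genes, Ltbp2 included. For banding in KO hearts, 1 of 10 members passed with all arrays, 8 with array weights (6 higher and 2 lower), 3 when each gene's probe sets were averaged, 7 without KO banded 1 and WT banded 3 together, and 0 to 6 when each array was left out in turn. Averaged over genotypes, 1 passed with all arrays, 4 with array weights, 6 without that pair and 0 to 5 with 1 array left out. Between genotypes in banded hearts, 0 passed with all arrays, 4 with array weights, 2 without the pair and 0 to 4 with 1 array left out. The interaction gave 0, 2 without the pair and 0 to 2 with 1 array left out, and the genotypes averaged over surgery gave 0, 1 and 0 to 1. Other member counts stayed within 1.5 times. With no filter and KO banded 1 left out together, a setting chosen after seeing the data, these 5 comparisons gave 6, 5, 4, 2 and 1, each including Ltbp2. Why the counts moved was not tested.

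Over all genes, banding in KO hearts gave 412 calls, against 214 with no filter, 273 without the variance trend, 1887 with array weights, 71 with only the groups compared and 5 to 1434 with 1 array left out. With no filter and KO banded 1 left out it gave 1153, and 843 averaged over genotypes. Averaged over genotypes it gave 172, against 78, 88 and 767 in the first 3 of these settings and 5 to 991 with 1 array left out. Contrasts with 0 calls gave up to 673 with 1 array left out, and KO against WT in banded hearts gave 586 with array weights. With probe sets averaged, banding in KO hearts gave 335. Without KO banded 1 and WT banded 3 together it gave 1349, and 929 averaged over genotypes. In that setting KO against WT in banded hearts gave 351, the interaction 95 and the genotypes averaged over surgery 84. With no filter and KO banded 1 left out, these 3 comparisons gave 541, 119 and 81.

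Replicate numbers did not pair the arrays: same-numbered arrays' deviations from their group means correlated at -0.282 to 0.234, with 2 of 18 pairs over 0.1 and 2 of 12 arrays closest to one of their own number. With the replicate block, 1 member passed for banding in KO hearts (Tgfb2, 1.79, limma adjusted p = 0.0157), 1 averaged over genotypes and 0 elsewhere, and 222 and 59 genes passed.

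Small differences that never passed turned sign. For KO against WT in sham hearts, Ltbp1 was 0.029 with median scaling, 0.028 with array weights and 0.204 with probe sets averaged, and median scaling gave 0.057 for Ltbp3, 0.015 for Ltbp4 and 0.043 for Tgfbr1, while quantile scaling gave -0.015 for Tgfbr3. For banding in WT hearts, Tgfbr1 was 0.014 with median scaling and 0.0066 without the pair. Averaged over surgery, averaging probe sets gave -0.0032 for Tgfbr1 and -0.028 for Tgfbr2.

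With 1 array left out, the ranges for KO against WT in sham hearts were -0.184 to 0.126 for Ltbp1, -0.042 to 0.241 for Ltbp2, -0.097 to 0.095 for Ltbp3, -0.191 to 0.092 for Ltbp4, -0.086 to 0.325 for Tgfb1, -0.278 to 0.028 for Tgfb3, -0.061 to 0.044 for Tgfbr1, -0.142 to 0.064 for Tgfbr2 and -0.157 to 0.160 for Tgfbr3. For banding in WT hearts they were -0.091 to 0.166 for Ltbp4, -0.374 to 0.038 for Tgfb1, -0.105 to 0.281 for Tgfb3 and -0.068 to 0.037 for Tgfbr1. Averaged over surgery, Tgfbr2 ranged over -0.018 to 0.117.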
